A study of Drosophila melanogaster with 6 samples.

Results

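Transcripts of 8 genes of the Polycomb repressive complexes were followed in single-cell RNA libraries from Drosophila melanogaster brains: escl, esc, E(z), Su(z)12 and Caf1-55 of Polycomb repressive complex 2, and Pc, ph-p and Psc of Polycomb repressive complex 1. They were taken by gene symbol from the 22064 features counted, and all 8 had UMIs (unique molecular identifiers, 1 per captured transcript) in every library. The gene escl entered because its level was higher in the tau knock-in, so its difference between the genotypes is given as a description with no test. The other genes joined it as partners in the same complexes.

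The study compared 3 control libraries, labelled elav-GAL4(x)/+, with 3 libraries labelled elav-tau P251L KI. The controls carry 1 copy of the pan-neuronal elav-GAL4 driver, and the knock-in is named for a changed residue of the Tau protein, which binds microtubules. A library came from 20 male and 20 female brains dissociated together, so single animals cannot be told apart, and the labels give no age, driver details for the knock-in or preparation date. Nothing in the labels says that the pools came from separate crosses, and p-values measure the spread between these pools.

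Polycomb proteins keep genes silent through cell division. Complex 2 places methyl groups on a lysine of histone H3: E(z) is the methyltransferase, Su(z)12 is required for its activity, Caf1-55 binds histones and also serves other chromatin complexes, and the WD-repeat proteins Esc and Escl fill the same position and bind the methylated tail. Esc acts mainly in the early embryo and Escl can replace it later. Complex 1 reads the mark through the chromodomain protein Pc and compacts chromatin through Psc and the polyhomeotic proteins, of which ph-p is 1 of a pair of tandem near-identical genes. In fly neurons these proteins are known for holding developmental regulators silent.

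The genes lie on 5 chromosome arms in the Ensembl annotation of BDGP6, matched by identifier. The gene escl (FBgn0032391) is at chr2L:11990927-11992848 on the plus strand, and its paralog esc (FBgn0000588) is at chr2L:11827204-11829405 on the minus strand, 161522 bp away. E(z) (FBgn0000629, chr3L:10634575-10638130), Su(z)12 (FBgn0020887, chr3L:19918242-19923462) and Pc (FBgn0003042, chr3L:21306138-21318020) share arm 3L on the minus strand. Caf1-55 (FBgn0263979) is at chr3R:15225576-15227564 on the plus strand, ph-p (FBgn0004861) at chrX:2126210-2138371 and Psc (FBgn0005624) at chr2R:12965997-12980994, both on the minus strand. Counts come from the 3′ end of transcripts, so levels are compared between samples and not between genes.

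Cells were barcodes with at least 1000 UMIs, which left 5467 to 24278 cells per control library and 7932 to 30602 per knock-in library, with median depths of 1633 to 2473 UMIs. Total depth ran from 22026339 to 103683860 UMIs in the controls and from 37984526 to 114599045 in the knock-in libraries. Any pair of libraries shared at most 1.02% of the cell barcodes of the smaller one. Levels are given as CPM, the UMIs of a gene per 1000000 UMIs. The tau gene itself was at 269 to 280 CPM in the controls and at 307, 311 and 68.7 CPM in knock-in replicates 1 to 3, so the library labelled knock-in replicate 3 stood apart; the knock-in changes a codon and the level is no check of it. Summed CPM of 7 fat body marker genes was 732 to 7526 in the controls and 27.1 to 661 in the knock-in libraries, without overlap and with 0 to 2 of the 7 genes at 0 in a library, and that of 8 glial markers was 449 to 570 and 530 to 937. The part of these differences in the results for all cells was not tested.

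The level of escl stood at 4.46, 3.21 and 3.68 CPM in control replicates 1 to 3 (56, 268 and 53 UMIs) and at 24.3, 12.6 and 19.3 CPM in knock-in replicates 1 to 3 (2133, 827 and 459 UMIs). The groups did not overlap, as in 8.88% of features for this direction, and the lowest knock-in library was well above the highest control. Means were 3.78 ± 0.63 CPM (SD, n = 3) and 18.7 ± 5.86 CPM (SD, n = 3), a ratio of 4.95 and a log2 fold change of 2.32 (SE 0.28). Leaving out each library in turn gave 2.10 to 2.54. Of 11200 features in the fit, 78 had a log2 fold change this large or larger. This is the measure on which escl was chosen.

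The share of cells with an escl UMI restates the same counts and is no separate support. With every cell thinned to 1000 UMIs, 0.622%, 0.309% and 0.439% of control cells held an escl UMI, against 2.25%, 1.15% and 1.65% of knock-in cells. Without thinning the shares were 1.01%, 1.08% and 0.931% against 7.01%, 2.58% and 5.16%. Nearly all of these cells held a single escl UMI, and the most in any cell was 2 in the controls and 9 in the knock-in. In barcodes under 500 UMIs, mostly free RNA and debris, the escl level was 40.8% to 44.7% of its level in cells in the controls and 39.1% to 65.9% in the knock-in. The part of such RNA in the shares was not tested, and at this depth a cell without an escl UMI cannot be called a cell without escl.

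**Figure D1:**
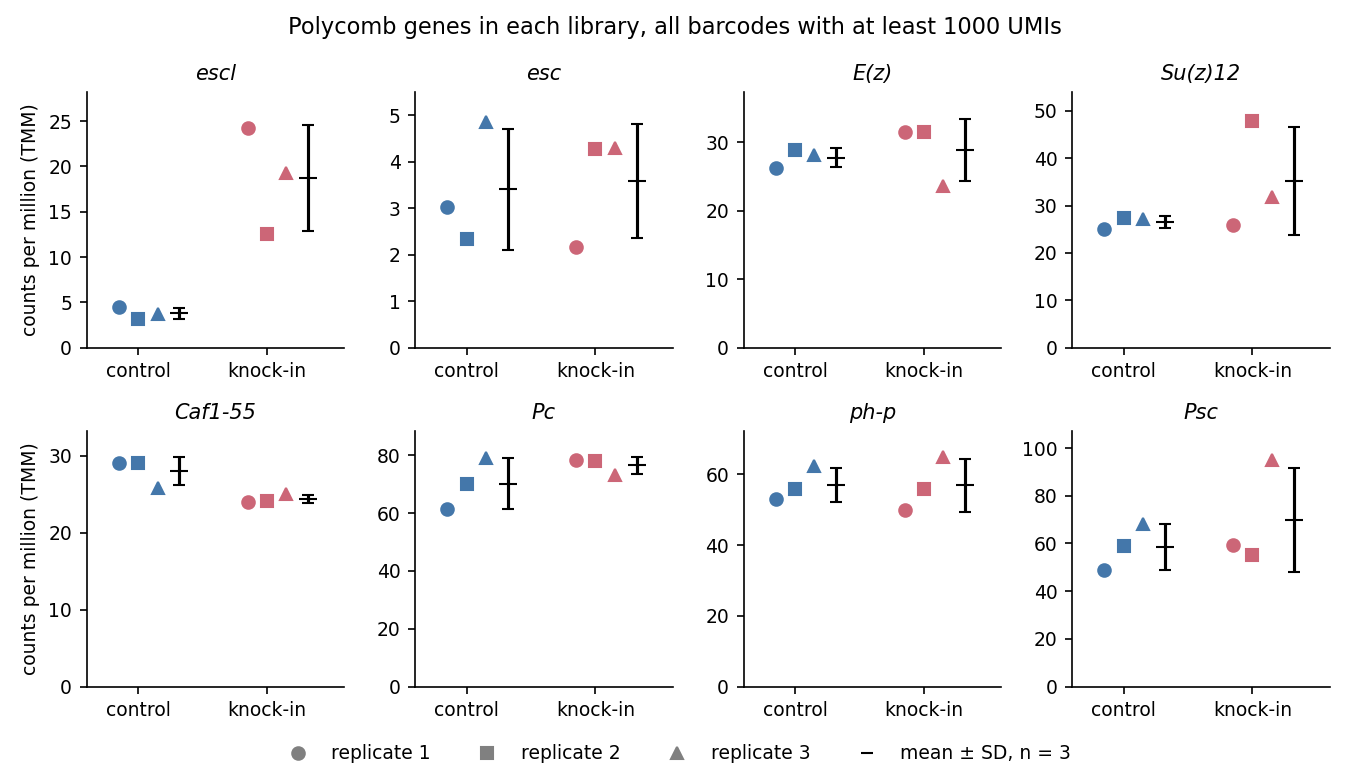
Level of each of the 8 Polycomb genes in CPM (TMM scaled, y axis from 0) in the 3 control and 3 knock-in libraries, with symbols for the replicate and black marks for mean ± SD (n = 3). The escl groups are apart (3.21 to 4.46 against 12.6 to 24.3), the Caf1-55 groups are apart by a small margin (25.9 to 29.2 against 24.0 to 25.1), and those of the other 6 genes overlap.

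The paralog esc was at nearly the same level in both genotypes. Control replicates 1 to 3 stood at 3.03, 2.33 and 4.86 CPM, and knock-in replicates 1 to 3 at 2.16, 4.28 and 4.28 CPM. The groups overlapped over most of their range. Its log2 fold change was 0.08 (SE 0.40, 95% interval -0.87 to 1.02, adjusted p = 0.944) from 38 to 195 UMIs per control library. The genotype effects of esc and escl were not tested against each other. Leaving out each library in turn gave -0.13 to 0.42 for esc.

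As a share of esc plus escl UMIs, escl made up 59.6%, 57.9% and 43.1% in control replicates 1 to 3, against 91.8%, 74.6% and 81.8% in knock-in replicates 1 to 3. In control replicate 3 the 95% exact binomial interval ran from 34.2% to 52.3%, and in knock-in replicate 2, the lowest of its group, from 72.0% to 77.2%; such intervals cover counting error only. The mean share was 53.5 ± 9.07% (SD, n = 3) in the controls and 82.8 ± 8.63% (SD, n = 3) in the knock-in. The share includes the escl count on which the gene was chosen, and it compares libraries with each other, not the level of escl with that of esc.

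Among the partners of escl in complex 2, E(z) was at 26.2, 28.9 and 28.1 CPM in the controls and at 31.5, 31.5 and 23.6 CPM in the knock-in. The control values fell inside the knock-in range. The log2 fold change of this methyltransferase was 0.06 (SE 0.15, 95% interval -0.31 to 0.42, adjusted p = 0.885).

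Su(z)12, the subunit needed for that activity, was at 25.01, 27.3 and 27.1 CPM in the controls and at 25.9, 47.9 and 31.9 CPM in the knock-in. Knock-in replicate 2 was high and replicate 1 lay inside the control range. The log2 fold change was 0.41 (SE 0.23, 95% interval -0.13 to 0.95, adjusted p = 0.519), and 0.12 without knock-in replicate 2.

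Caf1-55 was at 29.2, 29.1 and 25.9 CPM in the controls and at 24.0, 24.2 and 25.1 CPM in the knock-in. All knock-in libraries lay below all controls, as in 9.95% of the features tested. The log2 fold change was -0.20 (SE 0.12, 95% interval -0.49 to 0.08, adjusted p = 0.544), so the gap was within the error of the fit. With cells thinned to 1000 UMIs, 2.56% to 3.09% of control cells and 2.11% to 2.16% of knock-in cells held a UMI of Caf1-55.

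In complex 1, Pc was at 61.2, 70.2 and 79.0 CPM in the controls and at 78.3, 78.1 and 73.2 CPM in the knock-in, all knock-in values lying inside the control range. Its log2 fold change was 0.13 (SE 0.12, 95% interval -0.16 to 0.41, adjusted p = 0.671). The level of ph-p was 53.1, 55.7 and 62.4 CPM against 49.9, 55.9 and 64.9 CPM, and these groups covered nearly the same range. Its log2 fold change was -0.0051 (95% interval -0.32 to 0.31, adjusted p = 0.990); reads shared with its copy ph-d make the value uncertain, and ph-d itself differed by 0.15 (adjusted p = 0.733).

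Psc was at 48.9, 59.1 and 68.1 CPM in the controls and at 59.3, 55.2 and 95.04 CPM in the knock-in. The high value came from knock-in replicate 3, the library with low tau. In that library a cell held 116 of the 2264 Psc UMIs, against at most 8 in a cell of any other library. Its log2 fold change was 0.25 (SE 0.23, 95% interval -0.30 to 0.80, adjusted p = 0.665), and -0.01 without that library.

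The 7 genes other than escl, which was not tested, gave no call between genotypes. In all cells 0 of the 7 had an adjusted p under 0.05 in edgeR's quasi-likelihood test, where 25 of 11200 features (0.223%) did, 0 of the 7 had an unadjusted p under 0.05 (12% of features did), and DESeq2 called 0. Their log2 fold changes had a median of 0.08, against 0.002 over all features, with 5 above 0 and 2 below. The interval of each gene crosses 0 and leaves room for a larger change than this median. The intervals ran from -0.87 to 1.02 for esc, from -0.30 to 0.80 for Psc and from -0.16 to 0.41 for Pc. They do not show that any gene stayed the same.

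**Figure D2:**
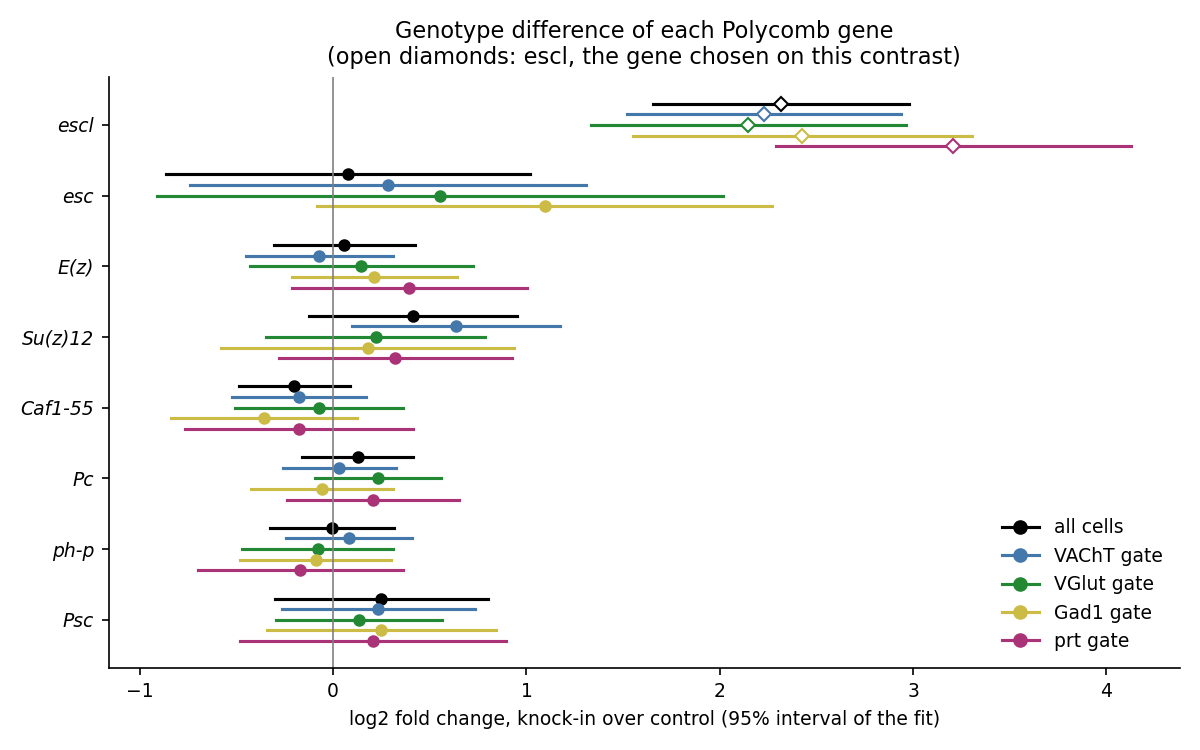
Log2 fold change of knock-in over control (points) with the 95% interval of the edgeR fit (lines) for each Polycomb gene in all cells and in the 4 gates of neurons. The escl estimates, drawn as open diamonds because escl was chosen on this contrast, lie between 2.15 and 3.21, while the intervals of the other genes cross 0 except that of Su(z)12 in the VAChT gate (0.10 to 1.17).

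Cells were then gated on transmitter and lineage genes to see whether the level of escl depended on cell type. The gates took cells with at least 2 UMIs of VAChT (the vesicular acetylcholine transporter), VGlut (the vesicular glutamate transporter), Gad1 (the enzyme that makes GABA), prt (portabella, a transporter of Kenyon cells of the mushroom body) or repo (the glial transcription factor), and none of the competing gate genes. The VAChT gate held 1432 to 7310 cells per library, the VGlut gate 655 to 3746, the Gad1 gate 532 to 2107, the prt gate 161 to 735 and the repo gate 12 to 44. Summed CPM of 9 Kenyon cell markers reached 24075 to 28780 in the prt gate. It was 5137 to 6815 in the VAChT gate, 4706 to 5310 in the Gad1 gate and 4394 to 4992 in the VGlut gate. Kenyon cells with no prt UMI may fall in the VAChT gate, and their part there was not tested. Summed glial markers reached 6349 to 11429 in the repo gate.

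The higher escl level of the knock-in, on which the gene was chosen, was also read within the gates of neurons. In the VAChT gate escl stood at 3.99, 3.41 and 3.17 CPM in the controls and at 22.8, 11.0 and 15.1 CPM in the knock-in, a log2 fold change of 2.23 (SE 0.31). In the VGlut gate it stood at 8.58, 3.80 and 5.90 CPM against 29.5, 16.2 and 27.3 CPM (2.15, SE 0.36). No knock-in library reached down to a control in either gate (a description, as for all cells), as in 7.18% of features for this direction in the VAChT gate and 5.76% in the VGlut gate.

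In the Gad1 gate escl stood at 5.96, 2.67 and 4.68 CPM in the controls and at 28.1, 13.95 and 19.8 CPM in the knock-in (log2 fold change 2.43, SE 0.39), again apart, as in 6.01% of features. In the prt gate it stood at 1.27, 1.89 and 1.52 CPM in the controls, from 1, 6 and 1 UMIs. The knock-in was at 19.4, 13.8 and 14.6 CPM, from 72, 15 and 25 UMIs (log2 fold change 3.21, SE 0.41). Such groups were found in 7.43% of the features tested there. The control levels were too low for the count filter, which escl passed in this gate only through the knock-in libraries, so that share is no yardstick for it. The ratio of means was 10.2 in the prt gate and 3.99 to 4.65 in the other 3 gates of neurons, but the denominator in the prt gate rests on 8 control UMIs, and a gate that asked for 1 UMI of prt gave a log2 fold change of 2.68. In the repo gate, 73 control cells held 0 escl UMIs of 287198, which allows up to 10.4 CPM at 3 counts and 12.8 CPM as the upper bound of a 95% exact Poisson interval, and 73 knock-in cells held 5 of 324812 (15.4 CPM, 95% exact Poisson interval 5.00 to 35.9, counting error only), so the glial gate is too thin to tell the genotypes apart.

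Other measures moved with the genotype inside the gates too. The mitochondrial share of UMIs was 4.12% to 4.80% in control and 5.49% to 7.70% in knock-in libraries over all cells, 3.78% to 4.10% against 4.98% to 6.29% in the VAChT gate, and apart in the same direction in the VGlut (4.27% to 4.57% against 5.89% to 7.25%), Gad1 (3.85% to 4.60% against 5.36% to 7.41%) and prt (2.25% to 2.67% against 3.66% to 4.08%) gates. With only cells of at most 20% mitochondrial UMIs, the log2 difference of escl was 2.32 in all cells and 2.14 to 3.21 in these gates. Summed glial markers were 202 to 377 CPM in the control and 329 to 814 CPM in the knock-in VAChT gate, with 0 of the 8 genes at 0, and fat body markers 499.7 to 3732 CPM against 19.8 to 550 CPM, with 0 to 3 of the 7 at 0. The part of these markers in the escl levels was not tested.

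**Figure D3:**
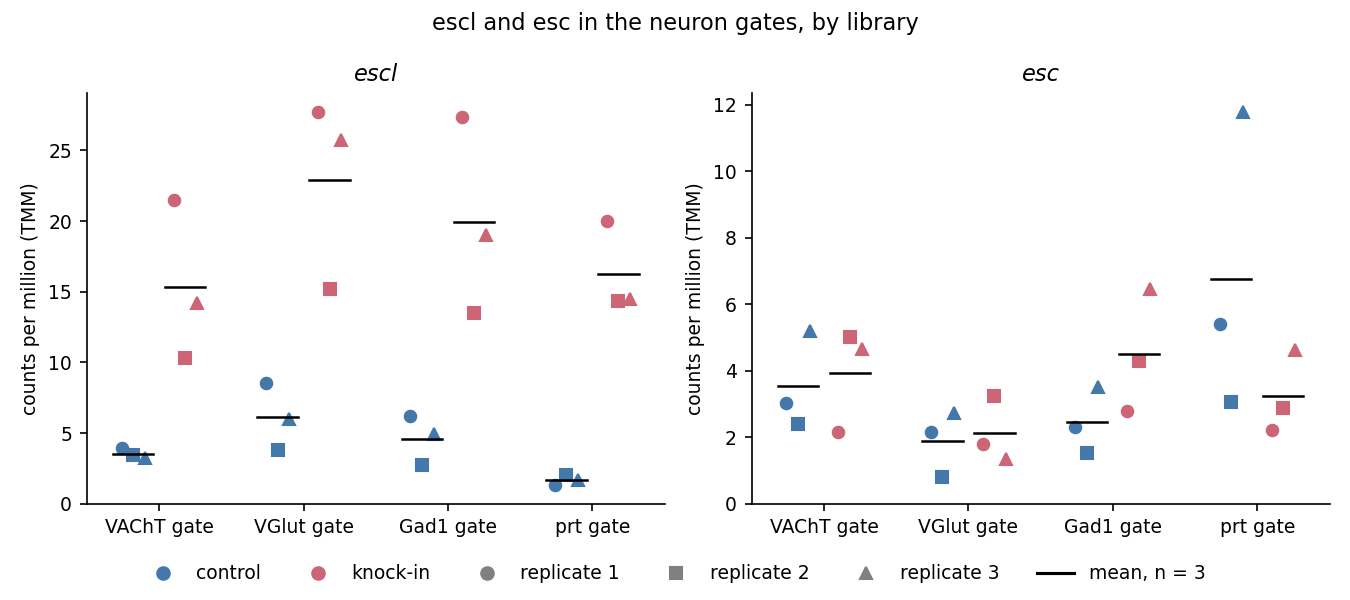
Level of escl (left) and esc (right) in CPM (y axes from 0, different ranges) in cells of the VAChT, VGlut, Gad1 and prt gates, by library. Bars are means of 3 libraries. TMM scaling was done in each genotype by itself, so the genotypes are not on a common scale. In escl the lowest knock-in value of every gate lies above the highest control value, and in esc the genotypes overlap in the VAChT, VGlut and Gad1 gates and in the prt gate, where the highest control value is 11.8.

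How escl and esc were distributed among kinds of neurons was tested inside each genotype, which leaves the genotype contrast aside. In the knock-in libraries escl differed among the 4 gates of neurons (adjusted p = 0.0033, edgeR F test with the library as a block), where 47.4% of features did. Its level was 27.7, 15.2 and 25.7 CPM in the VGlut gate, 27.4, 13.5 and 19.0 CPM in the Gad1 gate, 20.0, 14.4 and 14.5 CPM in the prt gate and 21.5, 10.3 and 14.2 CPM in the VAChT gate. Glutamatergic cells were the highest in each of the 3 libraries. The adjusted p was 0.0502 without knock-in replicate 1 and 0.638 without the block.

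In the controls the order of mean escl level was VGlut (6.12 ± 2.39 CPM, SD, n = 3), Gad1 (4.61 ± 1.72), VAChT (3.53 ± 0.38) and prt (1.69 ± 0.35). The VGlut gate was the highest and the prt gate the lowest in each of the 3 control libraries, yet the test did not pass (adjusted p = 0.120), with only 8 to 110 escl UMIs per gate. Neighbours in that order lie within 1 SD of each other except prt and VAChT.

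The paralog esc had another order in the controls. The prt gate came first (5.39, 3.06 and 11.8 CPM), followed by VAChT (3.04, 2.41 and 5.19 CPM), Gad1 (2.31, 1.54 and 3.50 CPM) and VGlut (2.14, 0.811 and 2.73 CPM). The prt gate was the highest and VGlut the lowest in each control library. The difference among gates passed the test (adjusted p = 0.0140, where 49.3% of features did), and did not without control replicate 3 (0.103). With a control library left out, only 2 fits could test esc. The prt levels rest on 4, 9 and 7 UMIs. In this fit esc passed the count filter only through sums of the prt and VAChT gates, where it was highest, so that share is no yardstick for it. In the knock-in libraries esc did not pass (adjusted p = 0.139).

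The mix of the paralogs is made from the same UMIs, so in the controls it restates the 2 orders. In the controls escl made up 77.0 ± 7.27% (SD, n = 3) of esc plus escl UMIs in the VGlut gate, 65.1 ± 7.23% in the Gad1 gate, 51.2 ± 11.3% in the VAChT gate and 24.2 ± 14.2% in the prt gate. In the knock-in these shares were 90.4 ± 7.02%, 80.4 ± 8.95%, 77.86 ± 11.996% and 83.0 ± 7.13%. The prt gate had the lowest share of the 4 in the controls and not in the knock-in, on 8 escl and 20 esc UMIs in the controls. The knock-in had 112 and 19. The difference between gates was not tested.

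Within gates, 0 of the 7 other genes passed the genotype test in the VAChT gate (0.312% of features did), 0 of 7 in the VGlut gate (0.215%), 0 of 7 in the Gad1 gate (0.308%) and 0 of 6 in the prt gate (0.28%), where esc was too low to test. At an unadjusted p under 0.05 the count was 1 in the VAChT gate (8.73% of features) and 0 in the VGlut (6.53%), Gad1 (6.37%) and prt (8.17%) gates, and DESeq2 called none. None of the 8 could be tested in the repo gate (0.216%). The 1 gene was Su(z)12, at 24.2, 24.7 and 22.7 CPM in the controls of the VAChT gate and 27.8, 51.4 and 32.4 CPM in the knock-in. All knock-in libraries lay above all controls, as in 7.18% of features for this direction in this gate, and replicate 2 was the farthest away. The log2 fold change was 0.64 (SE 0.23, adjusted p = 0.469). In the Gad1 gate the log2 fold change of Su(z)12 was 0.18 (SE 0.34) and that of esc 1.09 (SE 0.53, 95% interval -0.08 to 2.27, adjusted p = 0.783).

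A test of the difference of the genotype effect among the 5 gates called 33 of 8554 features (0.386%) and 0 of the 7 genes by edgeR, with 1 at an unadjusted p under 0.05 (7.36% of features), Su(z)12 (adjusted p = 0.404). For escl the 4 values by gate are those above, with no test of their difference.

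Levels among the 5 gates were compared in the controls for the 6 genes with enough UMIs there, which leaves out escl and esc. Of these, 4 differed among gates (Pc, Psc, Su(z)12 and Caf1-55), a share near the 62.8% of all features, and E(z) (adjusted p = 0.327) and ph-p (0.146) did not pass. Pc was at 82.6 ± 9.62 CPM (SD, n = 3) in the VAChT gate, 82.6 ± 13.8 in the Gad1 gate, 74.0 ± 10.7 in the VGlut gate and 60.1 ± 13.5 in the prt gate, against 0, 0 and 9.68 CPM in the repo gate, which came from 1 UMI in 73 cells.

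**Figure D4:**
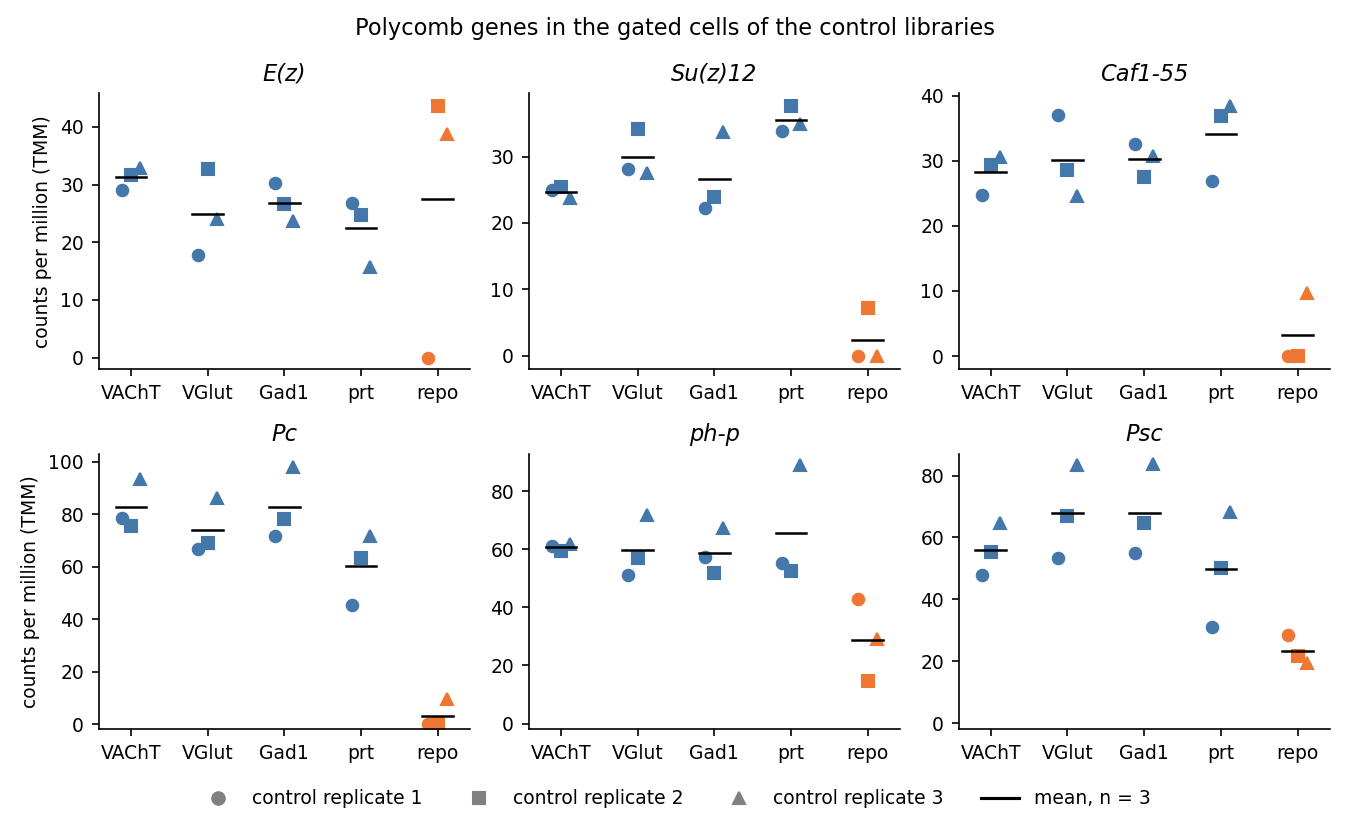
Level of 6 Polycomb genes in CPM (TMM scaled, separate y axes) in the 5 gates of the 3 control libraries, with bars at the mean and the glial repo gate in orange. Pc, Su(z)12 and Caf1-55 sit near 0 in the repo gate, Psc and ph-p sit at about the middle of their neuronal level or below, and E(z) spans 0 to 43.6.

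Against the mean of the other 4 gates, the repo gate was lower in Pc by a log2 difference of -4.53 (SE 0.67, adjusted p = 3.36e-06), in Caf1-55 by -3.23 (SE 0.94, 0.0063), in Su(z)12 by -3.16 (SE 0.90, 0.0051), in Psc by -1.43 (SE 0.40, 0.0050) and in ph-p by -1.23 (SE 0.44, 0.0232). That is 5 of 6 genes lower, where 29% of features were lower and 47.1% passed in either direction. Pc, Su(z)12 and Caf1-55 passed the count filter only through the gates of neurons, where they were high, so these shares are no yardstick for them. The median log2 difference of all features was -0.53. Of 22 Trithorax group genes, which oppose Polycomb silencing, 16 were called lower and 1 higher. Of 24 other Polycomb group genes 15 were called lower and 1 higher, so a lower level in this gate was not particular to these genes. E(z) did not follow, at 0, 43.6 and 38.7 CPM in the repo gate and a log2 difference of 0.26 (95% interval -0.84 to 1.35, adjusted p = 0.729). These fitted differences rest on 73 cells, with 51663 to 138675 UMIs per library, and on 1 UMI each for Pc, Su(z)12 and Caf1-55. Their size is loose, and a value of 0 in this gate is not an absence.

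Which of these held depended on the library. Pc and Su(z)12 were called lower in the repo gate whichever control was left out, Psc was not without control replicate 2 (adjusted p = 0.0700) or 3 (0.0767), ph-p not without replicate 2 (0.221) or 3 (0.0752), and Caf1-55 not without replicate 2 (0.106). In the 3 knock-in libraries the repo gate was again lower in all 3 genes of complex 1, Pc (-2.76, adjusted p = 2.6e-05), ph-p (-2.24, 0.00048) and Psc (-1.93, 0.00096), whereas Su(z)12 was at -0.12 (0.868) and Caf1-55 at -1.54 (0.145). With no condition on the other gate genes the controls gave a call for Pc alone (-1.19, adjusted p = 0.0094). Neuron marker sums in the repo gate were 227 to 800 CPM in the controls and 303 to 2440 CPM in the knock-in, against 9267 to 9873 CPM in the control prt gate.

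The prt gate, of Kenyon cells, differed from the other neurons in 3 of 6 genes, near the 46.7% of all features that passed, so the values describe these genes and do not set them apart. Against the mean of the VAChT, VGlut and Gad1 gates, the prt gate was higher in Su(z)12 by a log2 difference of 0.42 (SE 0.15, adjusted p = 0.0241), lower in Pc by -0.34 (SE 0.11, 0.0115) and lower in Psc by -0.35 (SE 0.11, 0.0149). Su(z)12 was at 35.5 ± 1.92 CPM (SD, n = 3) in the prt gate and 24.7 ± 0.87 to 29.9 ± 3.64 CPM in the other 3. The 3 knock-in libraries gave the same calls, with log2 differences of 0.42 for Su(z)12 (adjusted p = 0.0142), -0.26 for Pc (0.0388) and -0.39 for Psc (0.0086). Without control replicate 1 all 3 control calls were lost (adjusted p 0.124, 0.0559 and 0.0604), and without replicate 2 those of Su(z)12 (0.332) and Psc (0.101).

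Among the 4 gates of neurons alone, 4 of the 8 genes passed in each genotype, where 49.3% of features passed in the controls and 47.4% in the knock-in, so the count is that of features in general. With no library block 0 of the 8 passed in either. Besides esc in the controls, with the filter limit given above, and escl in the knock-in, the genes were Su(z)12, Pc and Psc. The adjusted p in the controls was 0.0241, 0.0082 and 0.0044 and in the knock-in 0.0041, 0.0237 and 0.0055. In the knock-in, prt again had the highest Su(z)12 (28.4, 55.5 and 40.5 CPM) and the lowest Pc (64.5, 60.3 and 61.9 CPM) of the 4 gates in every library. With control replicate 1, 2 or 3 left out, 1 or 2 of the 8 genes were called in the controls in place of 4, and 0, 2 and 4 in the knock-in with replicate 1, 2 and 3 left out.

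The rest of the Polycomb system was read from lists of related genes. Of 25 other Polycomb group genes (accessory subunits of complex 2, partners in complex 1, the deubiquitinase and the DNA-binding recruiters), 0 passed the genotype test in all cells by edgeR, 2 had an unadjusted p under 0.05, a share below the 12% of all features, and DESeq2 called 0. Their log2 fold changes were above 0 in 23 of 25, with a median of 0.17, where 5622 of 11200 features were above 0 with a median of 0.002. The 2 were Su(z)2, a relative of Psc (0.50, SE 0.16, adjusted p = 0.302), and Pcl, a subunit that guides complex 2 to chromatin (0.31, SE 0.12, adjusted p = 0.379). The count above 0 was 19 to 24 with a library left out.

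Of 22 Trithorax group genes, which oppose Polycomb silencing, 18 had a log2 fold change above 0, with a median of 0.15, and 0 passed by edgeR. Of 34 developmental regulators known as Polycomb targets, among them the Hox genes, 30 had enough UMIs to test, 22 were above 0, the median was 0.14 and 0 passed by edgeR. An unadjusted p under 0.05 was found for 2 of the Trithorax genes, kis and lid, and 1 of the targets, both shares below the 12% of all features, and DESeq2 called none in either list. The lists were not compared by a test. That target was vnd, a homeobox gene of the nervous system (1.30, SE 0.39, adjusted p = 0.290).

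The features whose levels across the 6 libraries were most like those of escl were Imp, an RNA-binding protein of neurons (Pearson r = 0.99 on log2 CPM plus 1), CG3919 (0.99), Dlic, the light intermediate chain of dynein (0.99), nom (0.98) and the transposable element insertion FBti0019305 (0.98). The 6 points share their genotype grouping, so any feature higher in the knock-in scores high. CG3919 was at 1.19, 1.34 and 1.25 CPM in the controls and at 4.54, 2.89 and 4.24 CPM in the knock-in. None of the 5 passed the genotype test (adjusted p 0.132 to 0.693). The other 7 Polycomb genes ran from -0.81 (Caf1-55) to 0.44 (Pc) in the same measure.

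Around escl, the 5 annotated genes on each side were read for the same contrast, and 0 of the 9 with enough UMIs passed by edgeR. At an unadjusted p under 0.05 there were 2, and DESeq2 called 1, CG16965, on 64 UMIs in the controls and 10 in the knock-in. The gene upstream, dgt2, a subunit of the augmin complex, overlaps escl by 53 exonic bases on the same strand, which is 2.93% of the exonic length of escl. It was at 17.0, 10.4 and 10.2 CPM in the controls and at 7.98, 8.02 and 2.01 CPM in the knock-in. All knock-in values were below all controls, the direction opposite to escl, and the log2 fold change was -1.05 (SE 0.50, adjusted p = 0.460). CG6686, next to CG16965, went the other way, from 66.3, 65.02 and 64.5 CPM in control libraries to 76.7, 89.6 and 68.6 CPM in knock-in libraries (0.26, SE 0.12, adjusted p = 0.460).

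Further downstream Qtzl was at 54.4, 30.4 and 30.5 CPM in the controls and at 5.60, 2.22 and 21.3 CPM in the knock-in. These groups did not overlap either (log2 fold change -2.002, SE 0.76, adjusted p = 0.379). The direction was opposite to that of escl. Sequences of escl and its neighbours were not compared, and any part of shared reads in their levels was not tested. The levels of escl and Qtzl were thus not shown to be independent of each other. In the prt gate, which has the lowest control level of escl, Qtzl was at 35.5, 25.2 and 25.9 CPM against 5.40, 0.923 and 17.5 CPM. Of the 73 other features tested within 500000 bp of escl, 0 passed by edgeR, 4 had an unadjusted p under 0.05 and DESeq2 called 2; the median log2 fold change was 0.04. In such windows around the other genes, edgeR called 4 of 104 features at Caf1-55 (FBti0019380, asRNA:CR45600, CG6912 and CG6654), 1 of 121 at Su(z)12 (Ir76a) and 1 of 115 at Pc (FBti0020189), where 0.223% of all features passed. It called 0 at esc, E(z), ph-p and Psc, where 4, 9, 8 and 23 features had an unadjusted p under 0.05 and DESeq2 called 2, 3, 1 and 4.

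**Figure D5:**
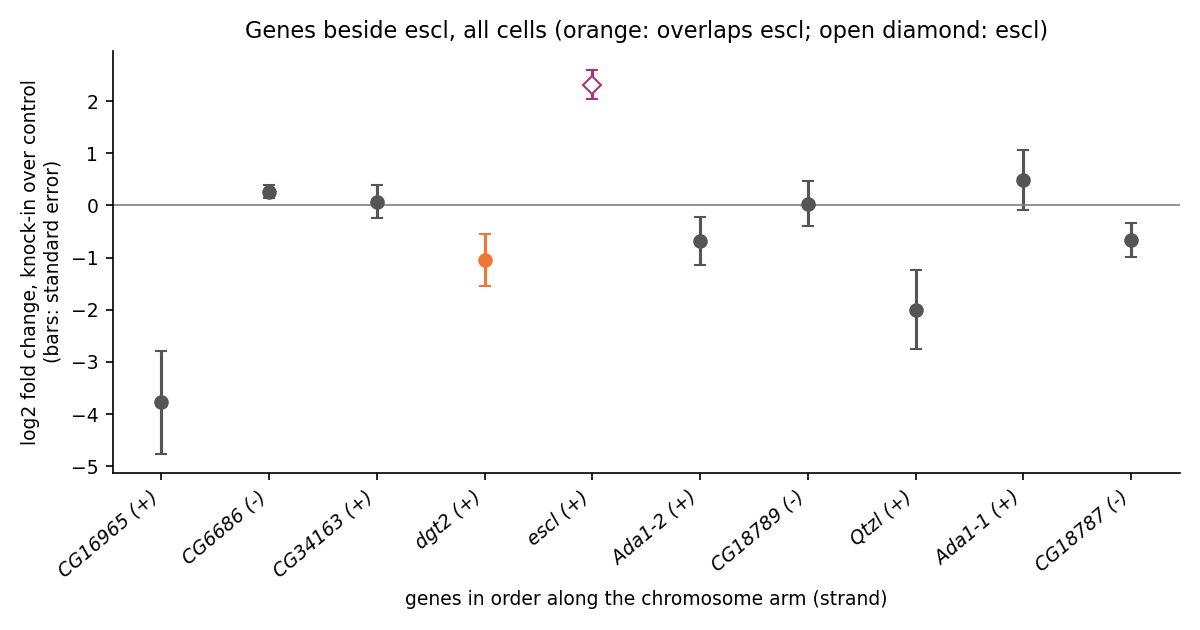
Log2 fold change of knock-in over control in all cells, with standard errors, for escl (open diamond, 2.32) and the tested genes beside it in chromosome order; dgt2, which overlaps escl, is in orange. The neighbours go both ways, from -3.78 for CG16965 to 0.49 for Ada1-1, 4 of the 9, dgt2, Qtzl, CG16965 and CG18787, have all knock-in libraries below all controls (9.95% of features do), and CG6686 has all of them above (8.88% of features).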

How the data were processed

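Libraries were made with a 10x Genomics Chromium 3′ kit after trypsin digestion of the brains, per the labels' protocols. The authors deposited raw UMI counts per feature and barcode with no normalization; per the file headers the writer was Cell Ranger 4, while the submitters' processing notes name Cell Ranger 6.0. The genome build, and whether reads were counted by strand, are not given in the sources used here. Positions came from Ensembl BDGP6, which held 22016 of 22064 identifiers.

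Barcodes with at least 1000 UMIs were kept, with no other filter and no doublet caller; the gates excluded cells with a UMI of a competing gate gene (the prt gate allowed VAChT). Counts were summed per library, or per library and gate, since the library is the replicate, and tested with edgeR 4.0.16 in R 4.3.3 (quasi-likelihood test, TMM, filterByExpr, two-sided, Benjamini-Hochberg over all features tested, threshold 0.05). CPM values are TMM scaled; tau and marker levels are plain CPM. Genotype fits had the group as the only term, and fits among gates had the library as a block. DESeq2 1.42.0 was an alternative. The procedure was tested on simulated data. The smallest control library held 11495072 UMIs in cells.

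The 8 genes and all lists were chosen with earlier results of these data known. Other genes named are those of the lists past the threshold, the 5 features most like escl and its 5 neighbours on each side; Su(z)2, Pcl, kis, lid, vnd, Qtzl, the features called in windows, dgt2 and the neighbours with groups apart were named after their values were seen. The comparison of the 4 gates of neurons was added after seeing the data, since escl and esc had too few UMIs in the repo gate.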

Additional observations from a re-analysis of the deposited data

Results flagged for a closer look

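Barcodes under 500 UMIs hold mostly RNA free in the suspension and debris. They enter no test above, where their escl level was given only relative to that in cells. These barcodes also carried more escl in the knock-in, with a mean of 10.0 ± 4.95 CPM (SD, n = 3) against 1.71 ± 0.41 CPM in the controls. Psc was at 16.7 ± 0.83 CPM there against 13.7 ± 1.13 CPM. In both genes every knock-in library lay above every control, as in 2.77% of the 12353 features with at least 10 UMIs in these barcodes, and neither difference was tested; the escl difference is in the direction for which the gene was chosen. The other 6 genes overlapped. Summed fat body markers in these barcodes were 22123, 18469 and 7462 CPM in control replicates 1 to 3, against 2310, 3125 and 168 CPM for the knock-in, with 0 or 1 of the 7 genes at 0; their part in these values was not tested.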

How the results depend on the processing

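In the 877 alternative values, 717 kept their direction and their side of the threshold or their size. Those of the 7 genes other than escl that could be tested in all cells and the 4 gates of neurons (esc could not in the prt gate with the filter of the report) had 0 calls between genotypes in the alternatives run, and escl kept a log2 difference of 1.78 to 3.48. With the counts of features called between genotypes at 25 in all cells, 28, 17, 23 and 17 in the VAChT, VGlut, Gad1 and prt gates and 3 in the repo gate, the DESeq2 test called 381, 134, 58, 52, 41 and 10, and the mildest filter 56, 233, 348, 293, 243 and 38. A library left out gave 1 to 61, 5 to 84, 3 to 68, 3 to 90, 3 to 76 and 0 to 13; thinned sums gave 14 in all cells, 10 in VGlut and 8 each in Gad1 and prt. A depth term gave 4 in all cells and 0 in repo, leaving out the deepest cells 0 in repo, a gate of 1 UMI 4 in Gad1, and no condition on the other gate genes 29 in VGlut and 1 in repo.

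Deviations of same-numbered libraries had correlations of 0.12, 0.05 and 0.26, and those of differently numbered libraries ran from -0.22 to 0.16. The highest was between the replicates numbered 3, and each of these was negative with replicates 1 and 2 of the other group. The numbers were not taken as pairs, and whether same-numbered libraries were prepared together was not tested. A replicate block gave 8 calls in all cells, 152 in VAChT, 55 in VGlut and 30 in prt. The interaction called 33 features, 283 with the mildest filter and 16 to 153 with a library left out. Among the 4 gates of neurons the controls gave 3656 features and 4 genes of the complexes, 2180 and 0 with no library block, and 2382 to 3330 and 1 to 2 with a library left out; the knock-in gave 4003 and 4, 1685 and 0 with no block, and 2218 to 3708 and 0 to 4. Among the 5 gates 2 to 4 genes were called with a library left out, and 3 to 5 in the other alternatives.

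Values near 0 changed sign. In all cells ph-p was 0.0090 and 0.0081 with DESeq2 size factors and test, 0.062 with a depth term, 0.024 at 2000 UMIs and -0.084 to 0.098 with a library left out; E(z) was -0.064 with a depth term and -0.011 to 0.21; esc was -0.013 at 500 UMIs and -0.13 to 0.42; Psc was -0.012 to 0.39. In the prt contrast E(z) was 0.0085 and ph-p -0.049 in the knock-in libraries, and ph-p -0.0066, -0.020 and -0.0031 with DESeq2 size factors, the mildest filter and no condition on other gate genes, and -0.077 to 0.18 with a library left out. In the repo contrast E(z) was -0.20 with no condition and -0.069 to 0.60. The cause was not tested. The small glial gate and the low UMI counts of escl and esc limit what gates can show.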
